A study of Homo sapiens with 15 samples.

Results

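PTBP1, PTBP2, NOVA1, NOVA2, RBFOX1, RBFOX2, SRRM4, ELAVL3, MSI1 and MSI2, a set of RNA-binding proteins that steer neuronal or photoreceptor alternative splicing, were followed from hiPSCs through ROs to iMGCs. The 10 genes were taken by symbol from the deposited gene tables, where each symbol stood for 1 of the 19684 genes. All libraries came from 1 human line, the BC1-GFP hiPSCs, which carry a GFP reporter and are labelled WT for genotype, without a further treatment. The 5 groups held 3 libraries each. They were undifferentiated hiPSCs, NR layers dissected from ROs after 70 days (D70-ROs) or 150 days (D150-ROs) of differentiation, and iMGCs, the induced Müller glial cells grown out from dissociated NR layers of D150-ROs on Matrigel in medium with serum, at passage 1 (P1) and passage 5 (P5), both on day 5 of the passage. Each RO library pooled the NR layers of several ROs, and every group rests on this single line.

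Alternative splicing is set by proteins that bind short sequences in the pre-mRNA and favour or block the use of nearby exons. PTBP1, the polypyrimidine tract-binding protein of most non-neuronal cells, represses neuronal exons and also a coding exon of its paralog PTBP2, so PTBP2 protein builds up when PTBP1 falls during neurogenesis. SRRM4 promotes the inclusion of very short neural exons called microexons, NOVA1 and NOVA2 act on YCAY elements, RBFOX1 and RBFOX2 bind UGCAUG, and ELAVL3 belongs to the Hu proteins of postmitotic neurons. The Musashi proteins MSI1 and MSI2 mark neural stem cells and also promote exons that are used in photoreceptors.

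Expression was read as deposited FPKM, which the authors scaled to transcript length and mapped fragments, and as RSEM expected counts, which are estimated fragments per gene. Library totals lay between 11349600 and 20398755 expected counts, with D70-RO replicate 2 the lowest. Differences were tested with edgeR's quasi-likelihood test on the counts, 2 groups at a time, with TMM scaling and Benjamini-Hochberg adjustment over all genes tested. A call took an adjusted p under 0.05 with at least a 2-fold difference, and a gene was tested where at least 3 of the libraries compared reached an FPKM of 1. RBFOX1 did not reach this level in any comparison. The methods and the sample descriptions give 3 independent experiments per group, whereas the series text gives 2 for hiPSCs and ROs, so p-values measure the spread between these libraries. That text also mentions 2 companies and a batch correction and does not assign them to libraries, so batch and group cannot be told apart.

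Marker genes set the frame for every value below. The 5 pluripotency markers summed to between 3161 and 3344 FPKM in the hiPSC libraries and to at most 8.96 FPKM in all other libraries. The 8 photoreceptor markers summed to between 1335 and 1469 FPKM in D150-ROs, to between 264.7 and 275.6 FPKM in D70-ROs and to at most 2.14 FPKM in iMGCs. The 8 neuronal markers summed to between 1137 and 1351 FPKM in D70-ROs, to between 735.1 and 770.7 FPKM in D150-ROs and to between 48.3 and 62.5 FPKM in iMGCs, of which TUBB3 made up the larger share (47.0 ± 3.59 FPKM in P1 iMGCs, SD, n = 3). Of the 8 markers of retinal progenitors and Müller glia, 4 had a mean FPKM of at least 1 in P1 iMGCs, namely VIM, PAX6, GLUL and SOX9, while RAX and RLBP1 were at 0 FPKM there and RLBP1 stayed at 0.03 FPKM in P5 iMGCs. The 8 mesenchymal markers, led by COL1A1, summed to between 4332 and 4864 FPKM in the iMGC libraries and to at most 51.1 FPKM in ROs. In hiPSCs the mesenchymal sum was between 137.3 and 163.7 FPKM. The neuronal sum there was between 177.3 and 188.8 FPKM, mostly TUBB3 at a mean of 150.8. The photoreceptor sum in hiPSCs was between 37.05 and 47.27 FPKM, mostly OTX2, and that of progenitors and Müller glia between 211.8 and 246.1 FPKM, mostly VIM. In these bulk libraries fewer cells of a type and less RNA per cell cannot be told apart, and the part of these cell-type differences in the results below was not tested.

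The promoters of 3 of the genes are shown because PTBP1, PTBP2 and SRRM4 took opposite courses between hiPSCs and ROs. RefSeq promoter windows of 300 bases, from 250 bases before to 50 bases after the annotated start, were given for 7 of the 10 genes, and the windows below are on the plus strand of GRCh38.p14. Capitals mark the GC box GGGCGG and the E-box CAGATG on either strand, and lower case the rest.

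PTBP1, chr19:797202-797501: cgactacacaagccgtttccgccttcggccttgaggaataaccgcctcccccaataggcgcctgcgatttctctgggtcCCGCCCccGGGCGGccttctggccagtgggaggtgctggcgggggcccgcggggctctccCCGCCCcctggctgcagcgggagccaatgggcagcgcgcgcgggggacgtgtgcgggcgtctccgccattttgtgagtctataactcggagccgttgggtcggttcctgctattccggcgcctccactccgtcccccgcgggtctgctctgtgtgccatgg

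PTBP2, chr1:96722388-96722687: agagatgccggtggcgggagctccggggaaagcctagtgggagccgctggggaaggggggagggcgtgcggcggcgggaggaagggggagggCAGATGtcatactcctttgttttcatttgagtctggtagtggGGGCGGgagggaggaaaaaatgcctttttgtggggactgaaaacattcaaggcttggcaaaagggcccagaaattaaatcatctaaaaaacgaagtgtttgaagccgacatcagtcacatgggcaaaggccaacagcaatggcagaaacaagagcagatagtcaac

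SRRM4, chr12:118981291-118981590: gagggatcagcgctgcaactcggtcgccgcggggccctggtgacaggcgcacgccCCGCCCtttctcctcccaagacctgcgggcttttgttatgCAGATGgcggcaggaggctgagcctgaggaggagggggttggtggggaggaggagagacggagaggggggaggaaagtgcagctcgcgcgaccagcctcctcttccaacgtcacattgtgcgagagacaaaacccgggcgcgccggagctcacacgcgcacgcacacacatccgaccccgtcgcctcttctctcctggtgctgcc

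The GC box was found 3 times in the PTBP1 window and once each in those of PTBP2 and SRRM4, and 45.0% of the 35116 promoter windows of the same length hold it on either strand. CAGATG was found 1 time each in the PTBP2 and SRRM4 windows and not in that of PTBP1, and 14.7% of all windows hold it. None of the 7 windows held the letters TAATCC of CRX and OTX sites (6.36% of all windows), the E-box CAGCTG (17.9%), the TATA letters TATAAA (11.5%), or the left and right parts of the REST element, TTCAGCACC (0.376%) and GGACAGC (6.03%), on either strand. GC made up 69.3% of the PTBP1 window, 66.7% of the SRRM4 window and 54% of the PTBP2 window.

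The polypyrimidine tract-binding paralogs moved in opposite directions from hiPSCs to ROs. PTBP1 (GRCh38, chr19:797075-812327, plus strand) had 368.02, 405.53 and 354.27 FPKM in the hiPSC libraries, 97.13, 111.57 and 106.53 at D70, 64.94, 68.86 and 67.13 at D150, 86.48, 82.36 and 82.34 in P1 iMGCs and 71.12, 82.22 and 75.28 in P5 iMGCs. The hiPSC libraries were far above all others, the D150-RO libraries were the lowest, and no neighbouring groups overlapped. PTBP1 fell from hiPSCs to D70-ROs (log2 fold change −1.86 ± 0.14 SE, edgeR adjusted p = 3.1e-07) and had a difference of −0.93 ± 0.10 from D70-ROs to D150-ROs, which passed the adjusted p (5.04e-05) but not the 2-fold limit.

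PTBP2 (chr1:96721665-96823738, plus strand), the paralog of neurons and testis, had 9.55, 7.66 and 12.60 FPKM in the hiPSC libraries, 34.91, 25.64 and 33.57 at D70, 45.59, 46.00 and 44.03 at D150, 4.36, 3.95 and 3.67 in P1 iMGCs and 4.33, 3.08 and 3.63 in P5 iMGCs. It was highest in D150-ROs and lowest in iMGCs, where the ranges of both passages overlapped and lay below those of hiPSCs. PTBP2 rose from hiPSCs to D70-ROs (1.53 ± 0.18, edgeR adjusted p = 1.38e-05), was a further 0.33 ± 0.11 higher at D150 without reaching 2-fold (adjusted p = 0.0232), and fell from D150-ROs to P1 iMGCs (−2.87 ± 0.07, adjusted p = 2.1e-15).

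The ratio of PTBP2 to PTBP1 within a library, on the FPKM scale, gathered both changes in 1 number. It was 0.0268 on average in hiPSCs, 0.301 at D70, 0.675 at D150, 0.0477 in P1 iMGCs and 0.0489 in P5 iMGCs. The ranges over libraries were 0.0189 to 0.0356 in hiPSCs, 0.23 to 0.359 in D70-ROs, 0.656 to 0.702 in D150-ROs and 0.0375 to 0.0609 in iMGCs, so the 2 passages overlapped each other and none of the other groups. PTBP1 remained the more abundant transcript of the pair in every library. In iMGCs the ratio was back near that of hiPSCs although PTBP1 itself was not, since PTBP1 in P1 iMGCs was lower than in hiPSCs (−1.71 ± 0.09, edgeR adjusted p = 5.32e-09) and PTBP2 was lower as well (−1.01 ± 0.17, adjusted p = 0.000138). The PTBP2 difference sits at the 2-fold limit and was −0.80 without hiPSC replicate 3 and −0.95 without P1-iMGC replicate 3, short of it in both. It also missed 2-fold with DESeq2 (−0.98), with all 15 libraries in 1 fit (−0.999) and with the replicate number as a block (−0.98).

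**Figure D1:**
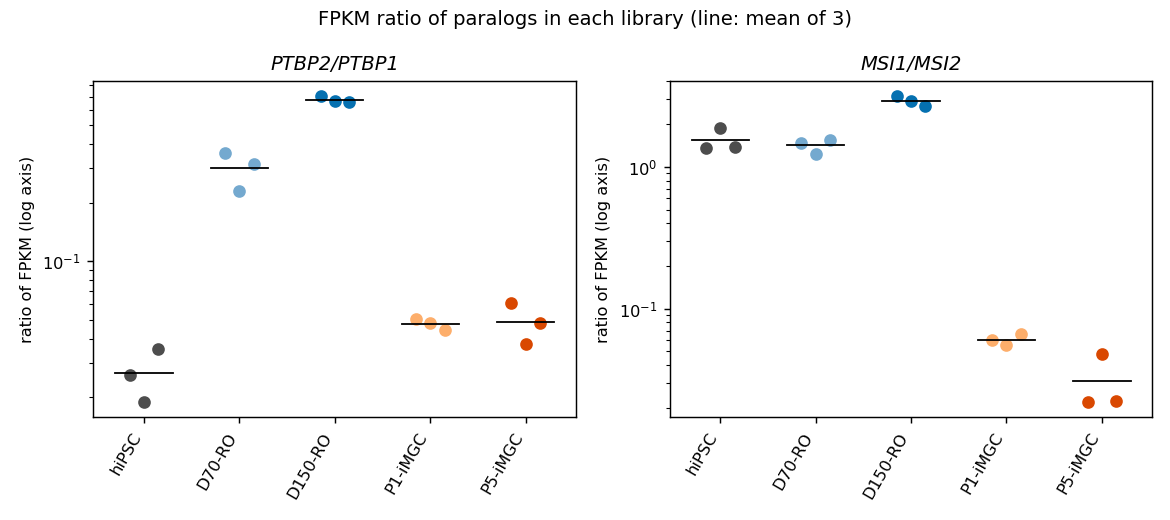
Ratio of FPKM within each library, PTBP2 to PTBP1 on the left and MSI1 to MSI2 on the right, on a logarithmic axis, with 1 point per library and a line at the mean of 3. The PTBP2 to PTBP1 ratio stands at 0.675 in D150-ROs and below 0.1 in hiPSCs and iMGCs, and the MSI1 to MSI2 ratio stands above 1 in hiPSCs and ROs and below 0.1 in iMGCs.

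The third paralog, PTBP3, moved differently from both. Its mean FPKM was 16.7 in hiPSCs, 8.87 at D70, 17.8 at D150, 21.8 in P1 iMGCs and 19.9 in P5 iMGCs. PTBP3 fell from hiPSCs to D70-ROs (−1.06, edgeR adjusted p = 3.07e-05) and was higher by counts in P1 iMGCs than in D150-ROs (1.11, adjusted p = 4.91e-12). On the FPKM scale these last groups overlapped, at 15.76 to 21.65 in D150-ROs and 21.21 to 22.99 in P1 iMGCs. From hiPSCs to D150-ROs PTBP3 was lower by counts (−0.46, edgeR adjusted p = 0.000837) but not in mean FPKM, so its direction there depends on the scale. The PTBP paralogs are similar in sequence, and RSEM divides fragments that match several genes between them by estimate.

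SRRM4 and ELAVL3 went from high levels in ROs to no or almost no counts in iMGCs. SRRM4 (chr12:118981495-119163051, plus strand), the activator of neural microexons, had 0.61, 0.51 and 0.62 FPKM in the hiPSC libraries, 6.99, 7.09 and 8.73 at D70 and 40.04, 37.03 and 39.35 at D150, and no count in any of the 6 iMGC libraries. The groups rose in steps without overlap from hiPSCs to D150-ROs. SRRM4 rose by 3.57 ± 0.16 on the log2 scale from hiPSCs to D70-ROs (edgeR adjusted p = 8.07e-09) and by a further 2.13 ± 0.10 to D150-ROs (adjusted p = 5.29e-07). Against the 15867 counts of the 3 D150-RO libraries, the limit of 3 counts that a group without counts allows puts SRRM4 at least 5500-fold lower in P1 iMGCs and at least 5480-fold lower in P5 iMGCs, and against the 294 counts of hiPSCs at least 82.7-fold lower in P1 iMGCs. These limits and the interval given for ELAVL3 cover counting error only.

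ELAVL3 (chr19:11451326-11481046, minus strand), a neuronal Hu protein, peaked earlier. It had 1.04, 0.78 and 0.47 FPKM in the hiPSC libraries, 21.66, 20.77 and 25.67 at D70, 11.70, 10.85 and 8.01 at D150, 0 in all P1 iMGC libraries and 0.02, 0.05 and 0.00 in P5 iMGCs. The D70-RO libraries were the highest and overlapped with no other group. ELAVL3 rose to D70-ROs (5.19 ± 0.20, edgeR adjusted p = 3.19e-09) and fell from D70-ROs to D150-ROs (−1.33 ± 0.15, adjusted p = 6.25e-05), the interval in which SRRM4 rose. It was at least 582-fold lower in P1 iMGCs than in D150-ROs, and the 3 counts of the P5 iMGC libraries give a ratio of 581 with a 95% counting interval of 198 to 2820.

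Paralogs of these genes split in the same interval. SRRM3, which also promotes neural microexons, had mean values of 4.22 FPKM in hiPSCs, 3.05 at D70, 13.6 at D150 and at most 0.04 in iMGCs, and rose from D70-ROs to D150-ROs (1.86, edgeR adjusted p = 5.09e-06). ELAVL2 and ELAVL4, the other neuronal Hu genes on the list, both fell there (−1.52, adjusted p = 0.000285, and −3.48, adjusted p = 6.43e-05). ELAVL4 was under 1 FPKM in every D150-RO library, so the filter fixed its direction. ELAVL1, the ubiquitous Hu gene, had 104.1, 59.4, 51.7, 33.7 and 30.5 FPKM from hiPSCs over the RO stages to the 2 iMGC passages, and was called lower in P1 iMGCs than in hiPSCs (−1.12, adjusted p = 3.35e-08). From D70-ROs to D150-ROs 7 of 7 tested photoreceptor markers rose and 5 of 8 neuronal markers fell. Of all genes tested there, 16.6% were called higher and 16.7% lower. STMN2 was among the falls (−3.19, edgeR adjusted p = 5.35e-07), whereas SNAP25 rose (2.32, adjusted p = 2.49e-06).

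MSI1 was the most abundant gene of the set in D150-ROs, and the Musashi genes parted in iMGCs. MSI1 (chr12:120341330-120369180, minus strand) had 22.23, 27.55 and 20.88 FPKM in the hiPSC libraries, 102.24, 84.16 and 107.44 at D70, 179.22, 172.90 and 162.32 at D150, 0.87, 0.81 and 0.88 in P1 iMGCs and 0.34, 0.72 and 0.33 in P5 iMGCs. No groups overlapped, with every D150-RO library above every other and every iMGC library below 1. MSI1 rose from hiPSCs to D70-ROs (1.68 ± 0.14, edgeR adjusted p = 8.19e-07) and was lower in P1 iMGCs than in D150-ROs (−6.42 ± 0.09, adjusted p = 4.16e-18) and than in hiPSCs (−4.45 ± 0.17, adjusted p = 5.78e-10). The 3 P1 libraries held 111 counts of MSI1 in all and the 3 P5 libraries 53.

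MSI2 (chr17:57255851-57684685, plus strand) had 16.40, 14.68 and 15.04 FPKM in the hiPSC libraries, 68.89, 68.24 and 69.64 at D70, 57.04, 59.65 and 60.57 at D150, 14.37, 14.67 and 13.38 in P1 iMGCs and 15.51, 15.01 and 14.79 in P5 iMGCs. Both RO groups were well above the rest, and the hiPSC range overlapped that of P5 iMGCs. MSI2 rose from hiPSCs to D70-ROs (1.99 ± 0.11, edgeR adjusted p = 2.69e-08) and fell from D150-ROs to P1 iMGCs (−1.24 ± 0.06, adjusted p = 6.13e-12). MSI2 kept a level in iMGCs close to that of hiPSCs, while MSI1 did not, and the ratio of MSI1 to MSI2 went from 1.54 in hiPSCs, 1.42 at D70 and 2.91 at D150 to 0.0605 in P1 iMGCs and 0.0307 in P5 iMGCs.

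Between D70-ROs and D150-ROs the 2 measures of MSI1 differed in size. Its mean FPKM went from 97.9 ± 12.2 to 171.5 ± 8.54 (SD, n = 3), but its counts differed by 0.28 ± 0.09 on the log2 scale (edgeR adjusted p = 0.0174), short of 2-fold. The number of counts per unit of FPKM, which follows the transcript length that RSEM assigns to a gene in a library, was between 42.3 and 42.6 in hiPSCs, between 35.7 and 36.9 in D70-ROs and between 29.2 and 29.5 in D150-ROs, after each library was scaled to a common median. The D150-RO mean was 0.691 of the hiPSC mean for MSI1, against a median of 1.0 over 6601 genes that reached an FPKM of 5 in each of the 9 hiPSC and RO libraries, and 0.151% of those genes had a ratio as low. For MSI2 the ratio was 0.916, for PTBP1 1.05, for PTBP2 1.03 and for RBFOX2 1.14. Isoform levels were not analysed here, and whether the MSI1 isoforms differ between the stages was not tested.

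**Figure D2:**
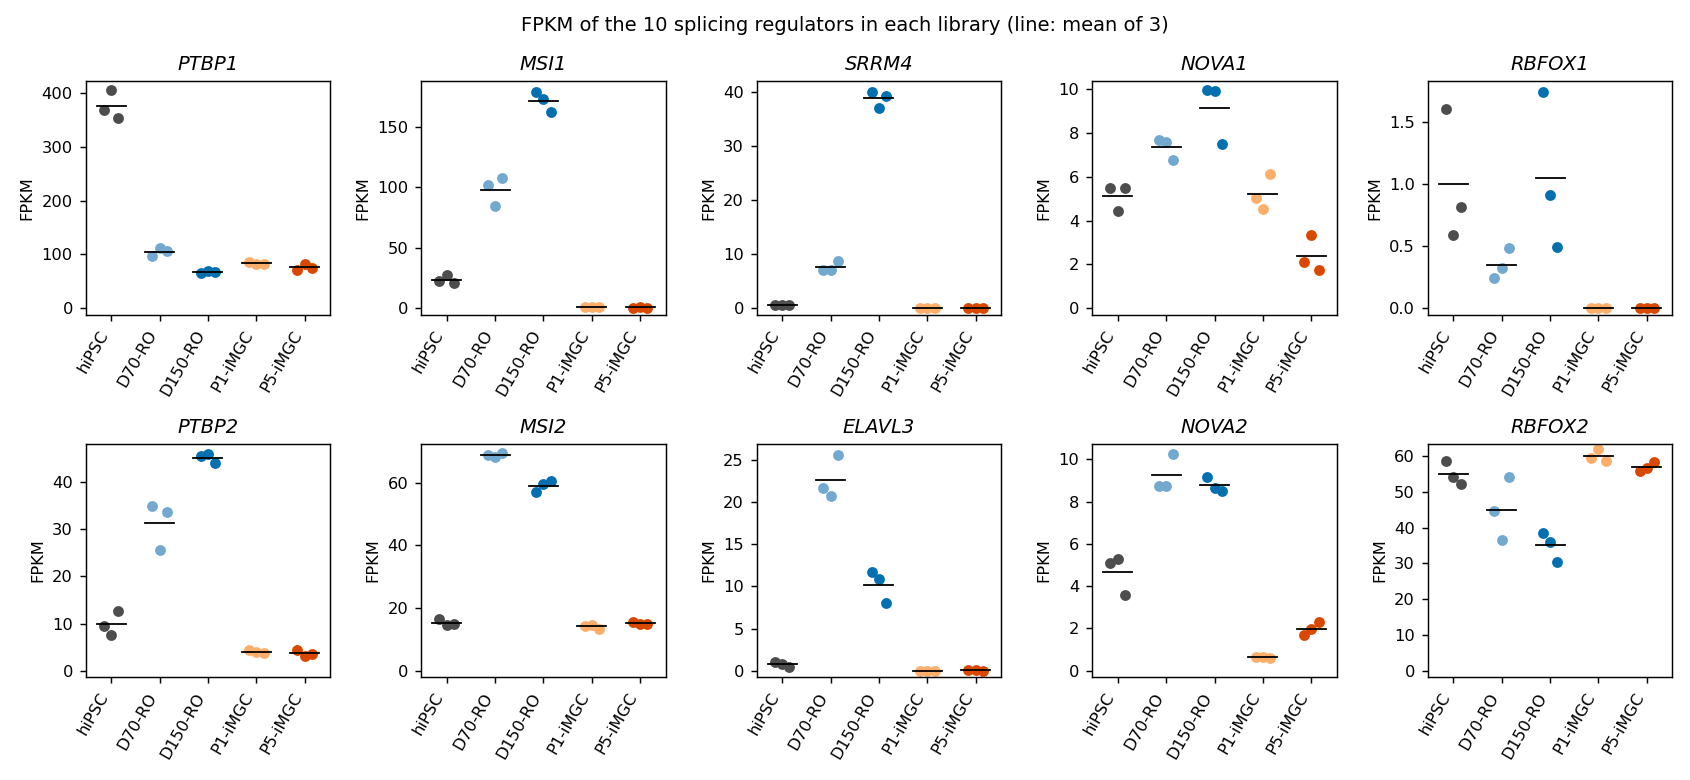
FPKM of the 10 splicing regulators, 1 panel per gene and 1 point per library in the order hiPSC, D70-RO, D150-RO, P1-iMGC and P5-iMGC, with a line at the mean of 3 and a separate linear axis for each gene. PTBP1 is highest in hiPSCs at a mean of 375.9, SRRM4 and MSI1 are highest in D150-ROs at 38.8 and 171.5, and SRRM4 and RBFOX1 are at 0 in the 6 iMGC libraries.

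The NOVA genes were expressed at low levels throughout. NOVA1 (chr14:26443093-26597754, minus strand) had 5.49, 4.44 and 5.50 FPKM in the hiPSC libraries, 7.69, 7.60 and 6.76 at D70, 9.97, 9.91 and 7.51 at D150, 5.02, 4.51 and 6.15 in P1 iMGCs and 2.10, 3.34 and 1.75 in P5 iMGCs. The P5 iMGC libraries lay below all the others and the RO libraries above them, while D70-ROs overlapped D150-ROs and hiPSCs overlapped P1 iMGCs. NOVA1 fell from P1 to P5 iMGCs (−1.04 ± 0.13, edgeR adjusted p = 1.09e-06), and the value was −0.95 without P5-iMGC replicate 3, which no longer reached 2-fold. Its difference between hiPSCs and D70-ROs (0.78 ± 0.16, adjusted p = 0.000895) stayed under 2-fold.

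NOVA2 (chr19:45933734-45973546, minus strand) had 5.10, 5.27 and 3.59 FPKM in the hiPSC libraries, 8.76, 8.76 and 10.26 at D70, 9.16, 8.67 and 8.52 at D150, 0.66, 0.67 and 0.58 in P1 iMGCs and 1.67, 1.98 and 2.32 in P5 iMGCs. The RO groups overlapped each other at the top, and the P1 iMGC libraries were the lowest and below all P5 iMGC libraries. NOVA2 fell from D150-ROs to P1 iMGCs (−3.11 ± 0.09, edgeR adjusted p = 1.87e-14) and rose from P1 to P5 iMGCs (1.64 ± 0.13, adjusted p = 2.98e-10). The paralogs thus moved in opposite directions between the passages, NOVA1 from 585 to 273 counts over 3 libraries and NOVA2 from 249 to 743. The photoreceptor and bipolar marker OTX2 (2.92, adjusted p = 4.67e-08) and the glial glutamate transporter SLC1A3 (1.88, adjusted p = 2.14e-07) were also higher at P5 than at P1. Of the 8 mesenchymal markers 1 was called higher at P5, PRRX1 with 3 counts at P1 and 331 at P5, and 1 lower, COL3A1 (−1.26, edgeR adjusted p = 3.45e-14). Of all genes tested there, 1.94% were called higher and 0.977% lower. NOVA2, OTX2, SLC1A3 and PRRX1 stayed under 1 FPKM in every P1 library. They entered the test only through P5, so the filter fixed their direction. The part of these markers in the NOVA2 difference was not tested.

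Over the 5 group means RBFOX2 varied least of the set. RBFOX2 (chr22:35738736-36028425, minus strand), the family member of many tissues, had 58.76, 54.13 and 52.29 FPKM in the hiPSC libraries, 44.60, 36.47 and 54.04 at D70, 38.54, 36.00 and 30.52 at D150, 59.41, 61.89 and 58.54 in P1 iMGCs and 55.74, 56.79 and 58.47 in P5 iMGCs. The D150-RO libraries were lowest, overlapping those of D70-ROs, and the P1 iMGC libraries highest, with 1 hiPSC library inside their range. By counts RBFOX2 was higher in P1 iMGCs than in D150-ROs (1.33 ± 0.07, edgeR adjusted p = 1e-10), and it was not called in any comparison among hiPSCs and ROs unless gene length was an offset. Its difference from hiPSCs to D70-ROs was −0.17 ± 0.11 (adjusted p = 0.179).

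RBFOX1 (chr16:5239802-7713338, plus strand), the neuronal and muscle member, was near the limit of detection. It had 1.60, 0.59 and 0.81 FPKM in the hiPSC libraries, 0.24, 0.32 and 0.48 at D70, 1.74, 0.91 and 0.49 at D150 and 0 in all iMGC libraries. The hiPSC and D150-RO libraries overlapped widely, and those of D70-ROs lay just below both. The groups held 100, 51 and 165 counts in that order, which puts RBFOX1 at least 57.1-fold lower in P1 iMGCs than in D150-ROs. RBFOX3, known as the neuronal antigen NeuN, had mean values of 10.6 FPKM in hiPSCs, 11.2 at D70, 6.43 at D150 and at most 0.0167 in iMGCs, and fell from D70-ROs to D150-ROs (−1.16, edgeR adjusted p = 2.87e-05).

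Counts over the set differed between the steps of differentiation. From hiPSCs to D70-ROs 6 of the 9 tested genes were called, against 43.5% of all genes tested, with PTBP2, SRRM4, ELAVL3, MSI1 and MSI2 higher and PTBP1 lower. Their median log2 fold change was 1.53, beside 0.02 over all genes tested. SRRM4 and ELAVL3 needed the D70-ROs, where they were high, to enter this test, so their rises are not independent of the filter. From D70-ROs to D150-ROs 2 of 9 were called, SRRM4 higher and ELAVL3 lower, against 33.3% of all genes, and the median of the 9 was −0.29. With a trend on gene length as an offset 5 of 9 were called there, since PTBP1 (−1.13), RBFOX2 (−1.14) and MSI2 (−1.47) then passed 2-fold. Over the whole interval from hiPSCs to D150-ROs 6 of 9 were called, against 58.8% of all genes, which is a share close to the background. There SRRM4 and ELAVL3 needed the D150-ROs to enter the test. These comparisons share libraries and do not count as separate evidence. Ranges that do not overlap were common among all genes, at 75.5% of those tested from hiPSCs to D70-ROs, 77.2% from D70-ROs to D150-ROs, 87.4% from hiPSCs to D150-ROs, 87.9% and 88.5% in P1 and P5 iMGCs against D150-ROs, 86% in P1 iMGCs against hiPSCs and 39.5% between the passages.

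**Figure D3:**
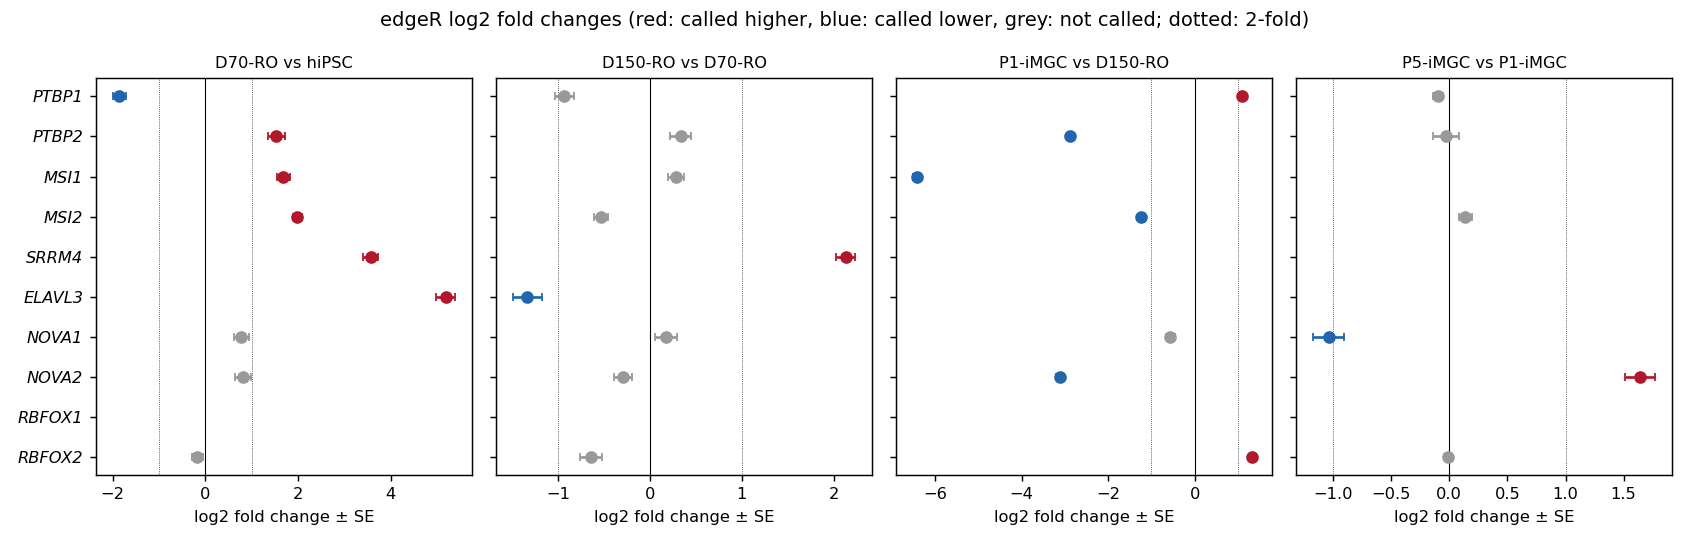
Log2 fold change with its SE from edgeR for each gene in 4 comparisons, red where called higher, blue where called lower and grey where not called, with dotted lines at 2-fold and a separate axis range for each panel. Genes that were not tested or had at most 3 counts in a group are left out. From P1 to P5 iMGCs NOVA2 is at 1.64 and NOVA1 at −1.04 while the other tested genes lie within 0.14 of 0.

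From D150-ROs to P1 iMGCs 8 of the 9 tested genes were called, against 44.1% of all genes, with PTBP2, NOVA2, SRRM4, ELAVL3, MSI1 and MSI2 lower and PTBP1 and RBFOX2 higher. SRRM4, ELAVL3, NOVA2 and MSI1 stayed under 1 FPKM in every P1 library and entered the test only through D150-ROs, where they were high, so the filter fixed the direction of these 4 differences. In P5 iMGCs 8 of 9 were called, against 44.6%, with NOVA1 joining those that were lower and PTBP1 (0.98 ± 0.05) just under 2-fold. The median log2 fold change of the 9 genes was −2.87 in P1 and −1.60 in P5 iMGCs, beside −0.05 over all genes tested in each, medians that include the genes whose direction the filter fixed (SRRM4, ELAVL3 and MSI1 in P5). Setting SRRM4 and ELAVL3 to the folds given above cannot move these medians, because both genes stay below them. The higher calls depend on the scale. On log2(FPKM + 1) with limma the median of all genes was −0.59 in P1 iMGCs and −0.65 in P5 iMGCs against D150-ROs, and PTBP1 (0.32 in P1) and RBFOX2 (0.76 in P1 and 0.69 in P5) were still above 0 but under 2-fold. The share of higher genes among all those called in P1 iMGCs was 45.4% by counts and 22.9% on that scale, and in P5 iMGCs it was 46.5% and 22.4%. It was 49.8% and 63.3% from D70-ROs to D150-ROs.

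Between the passages 2 of the 6 tested genes were called, NOVA2 higher and NOVA1 lower, against 2.92% of all genes tested. NOVA2 stayed under 1 FPKM in every P1 library and entered this test only through P5, so the filter fixed its direction. PTBP1 (−0.10 ± 0.04), PTBP2 (−0.03 ± 0.12), RBFOX2 (−0.01 ± 0.04) and MSI2 (0.14 ± 0.05) differed by less than 2-fold, and of these only MSI2 passed the adjusted p (0.0483 by edgeR). On log2(FPKM + 1), where a pseudocount of 1 weighs on genes at this level, neither NOVA gene was called (NOVA1 −0.89, adjusted p = 0.00564, and NOVA2 0.86, adjusted p = 0.000605 by limma).

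Compared with hiPSCs, P1 iMGCs had 4 of 7 tested genes called, all lower, against 55.8% of all genes called and 29.7% called lower. These were PTBP1, NOVA2 and MSI1, and PTBP2 at the 2-fold limit. NOVA2 and MSI1 stayed under 1 FPKM in every P1 library and entered the test only through hiPSCs, so the filter fixed their direction. NOVA1 (0.38 ± 0.13), RBFOX2 (0.51 ± 0.07) and MSI2 (0.21 ± 0.09) were not called, and MSI2 was −0.11 on log2(FPKM + 1), so its direction depends on the scale. SRRM4 and ELAVL3 were not tested here because neither reached an FPKM of 1 in 3 of the 6 libraries, and without that filter both were called lower, as was RBFOX1. The share of higher genes among all those called was 46.8% by counts and 35.6% on log2(FPKM + 1).

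Gene length moved with the stage. In the counts, the median log2 fold change from hiPSCs to D150-ROs was −0.81 in the lowest of 4 equal classes of summed exon length and 0.81 in the highest, and it was −0.60 and 0.52 from D70-ROs to D150-ROs. With a trend on summed exon length as an offset, the D150-RO differences from hiPSCs were 0.85 for PTBP2 and 0.04 for MSI2, and neither was called. MSI2 has 21479 bases of summed exons, and with the length implied by its counts and FPKM, an alternative added after the data were seen, its value was 0.88. PTBP1, SRRM4, ELAVL3 and MSI1 kept their calls in that comparison under both offsets, and PTBP2 kept its call with the implied length only. RBFOX2 was called lower in D150-ROs under both (−1.60, edgeR adjusted p = 2.21e-08, and −1.33, adjusted p = 1.26e-07), and NOVA1 was called higher with the implied length (1.03, adjusted p = 1.01e-05). NOVA2 changed sign there, from 0.52 to −0.10 and −0.67. From D70-ROs to D150-ROs NOVA2 was called lower with the implied length (−1.07, edgeR adjusted p = 4.75e-06). Against D150-ROs, MSI2 in P1 iMGCs was −0.90 with the summed exon length, short of 2-fold. In P5 iMGCs MSI2 was −0.79 with the summed exon length and −0.98 with the implied length, so its lower call was lost under both. The part of length in the differences was not tested further.

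REST, a repressor of neuronal genes that acts on SRRM4 and whose own transcript is spliced by SRRM4 into a less active form, was followed beside the set. Its mean FPKM was 6.14 in hiPSCs, 5.94 at D70, 9.29 at D150, 12.5 in P1 iMGCs and 11.2 in P5 iMGCs. REST was higher by counts in P1 iMGCs than in D150-ROs (1.13, edgeR adjusted p = 1.38e-11) and than in hiPSCs (1.36, adjusted p = 2.95e-07), and was not called among hiPSCs and ROs (0.23 from hiPSCs to D150-ROs, where SRRM4 was highest).

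Other regulators with a tissue bias were followed as a list of 18 genes. From hiPSCs to D70-ROs 17 were tested, and 7 rose and 3 fell, against 43.5% of all genes called. CELF3, a neural member of the CELF family, rose (6.07, edgeR adjusted p = 3.8e-10), and ESRP1, the regulator of epithelial splicing, fell from 56.9 to 0.153 FPKM (−8.84, adjusted p = 1.44e-10). Of the rises, CELF3, CELF4, CELF6, MBNL2 and RBM24 were under 1 FPKM in every hiPSC library. Of the falls, ESRP1 and ESRP2 were under 1 FPKM in every D70-RO library. The filter fixed the direction of these genes. From D70-ROs to D150-ROs 2 of 14 rose and 2 fell, against 33.3% of all genes, with CELF6 the largest rise (2.59, adjusted p = 1.63e-07) and the muscle regulator RBM24 the largest fall (−1.91, adjusted p = 0.000799). RBM24 needed the D70-ROs, where it was high, to enter that test.

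In P1 iMGCs against D150-ROs 3 of 15 of these regulators were higher and 6 lower, against 20% and 24.1% of all genes. RBM24 rose (3.88, edgeR adjusted p = 1.14e-10) from 0.75 to 7.28 FPKM, and CELF3 had 57.8 FPKM in D150-ROs and no count in P1 iMGCs. Each entered that test only with the group where it was high, as did RBM20, CELF4, CELF5, CELF6 and KHDRBS2. MBNL2, a muscleblind splicing factor, had mean values of 0.413 FPKM in hiPSCs, 10.5 at D70, 32.6 at D150, 25.4 in P1 iMGCs and 21.6 in P5 iMGCs, and was the largest rise of the list in P1 iMGCs against hiPSCs (6.62, adjusted p = 6.54e-12). MBNL2 transcripts were thus present in both ROs and iMGCs, unlike those of SRRM4. MBNL2 was under 1 FPKM in every hiPSC library, so the filter fixed the direction of its rise. The 7 muscle markers summed to between 15.2 and 16.4 FPKM in P1 iMGCs and to between 5.81 and 6.62 FPKM in D150-ROs. In hiPSCs they summed to between 84.35 and 88.34 FPKM, with TNNT1 at a mean of 77.3. TNNT1 made up 10.3 of the mean sum in P1 iMGCs and was higher there than in D150-ROs, as was DES. MYH3 was lower in P1 iMGCs than in D150-ROs (−3.14, edgeR adjusted p = 2.75e-08). MYOD1 and MYOG, which define muscle cells, were at 0 in P1 iMGCs. DES in D150-ROs and MYH3 in P1 iMGCs were under 1 FPKM in every library, so the filter fixed their direction. The part of the muscle markers in the RBM24 difference was not tested.

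General splicing factors were counted in the same way. Of the 14 SR family genes, which bind exonic enhancers, 2 rose and 2 fell from hiPSCs to D70-ROs (43.5% of all genes called), and 3 rose and 1 fell from D70-ROs to D150-ROs (33.3%), with SRSF11 the largest rise (1.27, edgeR adjusted p = 4.09e-05). In P1 iMGCs 2 were higher and 5 lower than in hiPSCs (55.8%), with SRSF7 at −1.63 (adjusted p = 7.94e-08), and 1 was higher and 1 lower than in D150-ROs (44.1%), where SRSF9 was higher (1.35, edgeR adjusted p = 8.42e-12) and SRSF12 lower (−1.20, adjusted p = 3.85e-07). Of the 23 hnRNP genes, 6 fell and none rose from hiPSCs to D70-ROs, where 21.1% of all genes were called lower, with HNRNPAB the largest fall (−1.63, adjusted p = 1.91e-07), and the median of the list was −0.34 beside 0.02 over all genes. In P1 iMGCs against hiPSCs 11 of 23 were lower and none higher, against 29.7% of all genes called lower, HNRNPM the most (−1.91, adjusted p = 8.18e-10), with a median of −0.85 beside −0.08 over all genes. From D150-ROs to P1 iMGCs 2 of 23 were lower and none higher, against 24.1% of all genes called lower, with HNRNPH1 at −1.52 (adjusted p = 4.45e-14).

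Mutations in several general spliceosome genes cause retinitis pigmentosa, and 9 of these were listed. From hiPSCs to D70-ROs 1 of 9 rose, RP9 (1.70, edgeR adjusted p = 2.82e-06), and none fell. Of all genes tested there, 22.5% were called higher and 21.1% lower. From D70-ROs to D150-ROs 5 of the 9 had an adjusted p under 0.05 in edgeR, each with a change below 2-fold, and 73.9% of all genes passed that limit there. In P1 iMGCs against D150-ROs 1 of 9 was lower, SNRNP200 (−1.13, edgeR adjusted p = 3.05e-12), against 24.1% of all genes called lower. All genes called in these lists had the same direction in mean FPKM as in the counts.

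**Figure D4:**
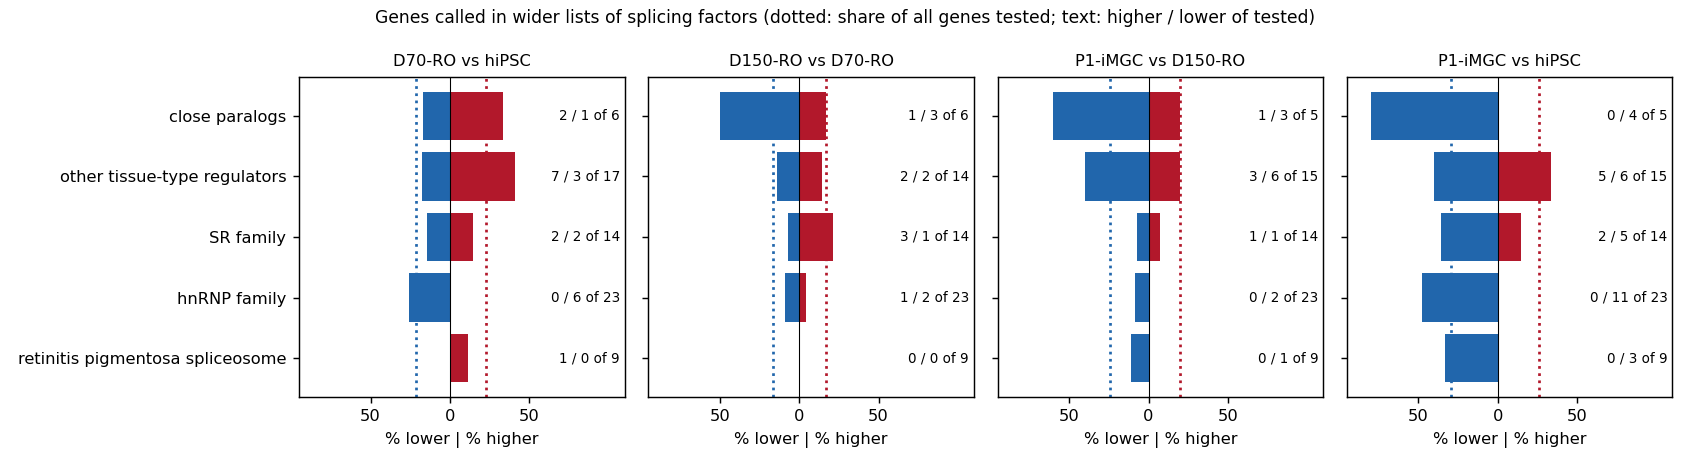
Percentage of tested genes called lower (blue, to the left) and higher (red, to the right) in 5 lists of splicing factors and 4 comparisons, with the numbers of genes called higher and lower beside each bar and dotted lines at the shares of all genes tested. In P1 iMGCs against hiPSCs 11 of 23 hnRNP genes are lower and none is higher, and the retinitis pigmentosa list has at most 3 of 9 genes called in any panel.

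The genes whose profile over all 15 libraries was most like that of each regulator were taken by Pearson's correlation of log2(FPKM + 1) among 13915 genes. The points share their group structure, so high values are common and are given as a description. EGFLAM (0.999), AIPL1 (0.998) and TMEM132E (0.998) were nearest to SRRM4, where AIPL1 is a photoreceptor chaperone and EGFLAM a matrix protein of the photoreceptor synapse. ZCCHC12 (0.998), TPPP and DCX (both 0.996) were nearest to ELAVL3, and DCX is a microtubule protein of migrating neurons. PLEKHG1 and DLL4 (both 0.998) were among the nearest to MSI2, and DLL4 is a Notch ligand.

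CHD7 (0.997), a chromatin remodeller, and RGS16 (0.996) were among those nearest to MSI1. PTBP1 was most like FADS2 (0.997), FAM83D (0.995) and SLC2A3 (0.993), all highest in hiPSCs, and PTBP2 like C9orf72 (0.996), KLHDC2 (0.994) and DPP10 (0.993). For the NOVA and RBFOX genes the nearest values were lower, at 0.933 for PICK1 with NOVA1, 0.980 for TEF with NOVA2, 0.937 for CACNA1G with RBFOX1 and 0.949 for DOCK1 with RBFOX2. Within the set, ELAVL3 and MSI2 (0.981) and PTBP2 and MSI1 (0.968) were the most alike, RBFOX2 and SRRM4 were the most opposed (−0.904), and PTBP1 and PTBP2 had −0.096.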

How the data were processed

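Poly(A) RNA of 15 libraries was sequenced as paired ends. The authors used HISAT2 for mapping, StringTie for assembly and RSEM for gene quantification, with versions and genome build not given in the sources used here. The deposited expected counts are RSEM estimates per gene without normalization, and the deposited FPKM values are scaled by the authors for transcript length and mapped fragments. Between 8.21% and 10.1% of the expected counts were not whole and were rounded. Of 3 deposited tables, 2 were used. The third sets D150-ROs beside iMGCs of no stated passage, so 12 columns were not used, 6 of which name no sample. The authors' own DESeq2 comparisons were not used. Strand of the libraries is not stated, so fragments of a gene and of an antisense partner cannot be told apart. Positions come from GENCODE 29, which holds all 19684 gene identifiers, and promoters from RefSeq (GRCh38.p14).

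edgeR 4.0.16 under R 4.3.3 tested 7 pairs of groups (quasi-likelihood, TMM, no covariates). A gene entered a test when 3 or more of the libraries compared reached an FPKM of 1, and p-values were adjusted by Benjamini-Hochberg over all genes tested. Called means an adjusted p under 0.05 with at least a 2-fold difference. Comparisons across tables used the counts joined by identifier. On simulated data, edgeR recovered 98.5% to 100% of 200 genes changed 4-fold in each comparison. Those counts were drawn with the dispersions that edgeR had fitted, which favours recovery. The simulation does not bear on calls near 2-fold. Library totals were 11349600 to 20398755 counts. A group without counts was given a limit of 3 counts over the group.

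The genes and lists were chosen with earlier results of these data known. All 10 genes are given in every library, and from each wider list the called gene with the largest rise and fall per comparison, the close paralogs, REST, and up to 3 genes most like each regulator. A few other genes that the rule names are not reported here. Replicates share numbers in the labels, and the deviations of equally numbered replicates correlated between −0.074 and 0.337 and not all above 0.1. With 3 libraries per group these values cannot settle whether the numbers pair the libraries. Alternatives were no filter, upper-quartile scaling, DESeq2 1.42.0, limma 3.58.1 on log2(FPKM + 1) and log2(FPKM + 0.1), a test against a 2-fold change, all 15 libraries in 1 fit, the replicate block, a length trend as an offset, leaving out each replicate and, added after seeing the data, a trend on implied length.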

Additional observations from a re-analysis of the deposited data

How the results depend on the processing

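Of 928 fold changes of the 10 genes under an alternative, 877 kept their direction and side of the threshold. Another 23 lost the call, 14 gained it and 14 changed sign. None of the 76 ratios moved by more than 1 SD. Leaving out 1 of 3 libraries cannot move a mean by that much, so those cases do not test the ratios. The count of all genes called moved beyond 1.5 times in 4 of 112 cases and the count of the 10 genes called in 5 of 112. From D70-ROs to D150-ROs the test against a 2-fold change called 2830 of all genes (4276 in the report), and the length offset called 5 of the 10 genes rather than 2. From P1 to P5 iMGCs 332 of all genes were called, with 694 without the filter, 152 by limma on log2(FPKM + 1) and 161 against a 2-fold change. Of the 10 genes, 2 were called there, with 0 by limma on log2(FPKM + 1), where NOVA1 and NOVA2 both had an adjusted p under 0.05, 1 against a 2-fold change and 1 to 2 with a replicate left out (1 without P5-iMGC replicate 3). For P1 iMGCs against hiPSCs 7 rather than 4 were called without the filter, as SRRM4, ELAVL3 and RBFOX1 then entered the test.

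Signs changed under the length offset for PTBP2 (−0.33) and NOVA1 (−0.33) from D70-ROs to D150-ROs, for NOVA2 (−0.10) from hiPSCs to D150-ROs, and for NOVA1 (−0.21), RBFOX2 (−0.086) and MSI2 (−0.86) in P1 iMGCs against hiPSCs. Under the implied length they changed for NOVA2 (−0.67) from hiPSCs to D150-ROs and MSI2 (−0.24, also below 0 by limma at −0.11 and −0.12) in P1 iMGCs against hiPSCs. From P1 to P5 iMGCs, with a replicate left out, PTBP2 was between −0.16 and 0.056, with 0.042 without P1-iMGC replicate 1, 0.056 without P5-iMGC replicate 2 and 0.0035 without P5-iMGC replicate 3, and RBFOX2 was between −0.030 and 0.012 (0.012 without P5-iMGC replicate 1). The cause was not tested.

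With the replicate number as a block, PTBP2 in P1 iMGCs against hiPSCs was −0.98 and lost its call, leaving 3 of the 10 genes called rather than 4, and no other call of the 10 genes changed. Equally numbered libraries share a number in the labels, and whether they share an experiment is not stated. PTBP1 in P1 iMGCs against D150-ROs was 0.97 with upper-quartile scaling, under 2-fold. Depth limits RBFOX1, with 51 to 165 counts per group in hiPSCs and ROs, and MSI1 in P5 iMGCs, with 53 counts.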
